A study of Mus musculus with 12 samples.

Results

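The genes of sterol and fatty acid synthesis were followed in cultured fibroblasts of the mouse heart, which make its extracellular matrix, after they had received the small molecule MCB-613-10-1. MCB-613-10-1 is a derivative of MCB-613, a compound known for stimulating steroid receptor coactivators. The 34 genes were taken by symbol from the deposited gene tables, which hold 29030 genes in all. They comprise 18 enzymes of sterol synthesis, 5 genes of the SREBP system (Srebf1 and Srebf2, which encode the SREBP transcription factors, and Scap, Insig1 and Insig2, which control their release; SREBP regulators below), the sterol carrier Stard4 and 10 enzymes that make, elongate or desaturate fatty acids. All 34 passed the low-count filter in every comparison.

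The cells were primary fibroblasts from hearts of C57BL/6 mice, kept in DMEM with 10% fetal bovine serum. MCB-613-10-1 was given at 6 µM and compared with its ethanol vehicle after 4 h and after 24 h, with 3 RNA-sequencing libraries in each of these 4 groups. Serum carries lipoproteins, which bring cholesterol to cells of all groups. The labels do not say whether the libraries of a group came from separate cultures or animals, so p-values measure only the spread between these libraries, which may be technical.

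Libraries held 26869195 to 31596784 counts at 4 h and 25016754 to 34877090 at 24 h. Within each group no pair of libraries agreed as closely as sampling alone would give, so none was treated as a duplicate. Vehicle replicate 1 at 4 h stood apart, with a correlation across genes, on log2 levels, of 0.986 to each of the other vehicle libraries, against 0.993 between those. The 10 fibroblast markers examined (collagens, Pdgfra, Tcf21 and others) were all detected and summed to 14445 to 16362 CPM (counts scaled to a library of 1000000) in vehicle at 4 h and 16203 to 20020 at 24 h, so markers of the labelled cell type were present. Group names in the 24 h table have a prefix of unknown meaning that is missing from the 4 h table. Time and any other difference between the 4 h and 24 h libraries cannot be told apart.

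Cholesterol is built from acetyl-CoA through mevalonate, farnesyl diphosphate, squalene and lanosterol, and fatty acids from the same acetyl-CoA through malonyl-CoA and palmitate. The transcription factors encoded by Srebf2 and Srebf1 (SREBPs) switch on these genes, the first mainly those of sterols and the second mainly those of fatty acids. They are made as membrane proteins of the endoplasmic reticulum. When sterols are scarce, SCAP carries them to the Golgi, where proteases release the active part, and when sterols are plentiful, INSIG proteins hold SCAP back. SREBPs bind sterol regulatory elements in promoters together with NF-Y, which binds CCAAT boxes. Cultured fibroblasts both make cholesterol and take it up from lipoproteins.

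Promoter sequences of these genes were searched for binding motifs of these factors. RefSeq windows (GRCm38.p6) from 250 bases before to 50 after a start were at hand for 27 of the 34 genes, as 35 windows of 300 bases. The CCAAT box, searched on either strand (ATTGG on the other), was in 23 of the 35 windows (65.7%), against 37.4% of all 32851 windows. By group it was in 14 of 18 windows of sterol enzymes (77.8%), 4 of 7 of fatty acid enzymes (57.1%) and 5 of 10 of SREBP regulators (50%). The sterol element form TCACNCCAC, again on either strand, was in 1 of 35 windows (2.86%), that of Hmgcs1, against 1.24% of all. The palindrome CACGTG, an E-box, was in 7 of 35 (20%), against 7.15%. Some genes have several windows, and those of Scap overlap and share 1 E-box. Counted by gene, a CCAAT box was found for 22 of 27 (81.5%), against 41.1% of all genes with a window, and an E-box for 6 of 27 (22.2%), against 8.09%. None of the 3 motifs contains another, and a match is a description of the letters and not a binding site. No window was used for Fdft1, Fdps, Sqle, Stard4, Scd1, Scd2 and Fads1.

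The 250 bases before the start are shown for 4 genes on which the results turn. Idi1 (chr13:8885356-8885605, plus strand) and Mvk (chr5:114444019-114444268, plus strand) had the largest falls among sterol enzymes after 24 h. Hmgcs1 (chr13:119690101-119690350, plus strand) held the only match to the sterol element form. Sc5d (chr9:42264301-42264550, minus strand) was the sterol enzyme that rose most. Capitals mark CCAAT or ATTGG, and in Hmgcs1 also TCACCCCAC.
Idi1: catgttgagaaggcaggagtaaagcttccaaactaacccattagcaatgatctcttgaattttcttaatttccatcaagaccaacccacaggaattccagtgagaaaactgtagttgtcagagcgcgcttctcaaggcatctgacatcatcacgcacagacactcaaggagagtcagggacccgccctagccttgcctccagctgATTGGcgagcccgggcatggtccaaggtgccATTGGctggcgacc
Mvk: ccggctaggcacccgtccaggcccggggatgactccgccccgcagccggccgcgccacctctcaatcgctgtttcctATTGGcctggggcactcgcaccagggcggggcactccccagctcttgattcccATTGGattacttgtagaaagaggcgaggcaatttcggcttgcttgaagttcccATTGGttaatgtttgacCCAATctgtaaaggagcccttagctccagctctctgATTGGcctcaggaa
Hmgcs1: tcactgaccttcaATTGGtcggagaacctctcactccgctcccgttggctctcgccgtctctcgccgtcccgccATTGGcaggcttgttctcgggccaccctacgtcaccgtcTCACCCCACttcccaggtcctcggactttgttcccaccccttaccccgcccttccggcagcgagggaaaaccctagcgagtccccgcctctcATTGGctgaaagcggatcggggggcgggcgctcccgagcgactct
Sc5d: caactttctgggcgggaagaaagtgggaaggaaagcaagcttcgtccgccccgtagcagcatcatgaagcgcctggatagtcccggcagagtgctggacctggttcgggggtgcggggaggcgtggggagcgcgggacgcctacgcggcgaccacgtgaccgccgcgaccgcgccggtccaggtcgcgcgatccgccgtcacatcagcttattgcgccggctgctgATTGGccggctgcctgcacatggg
The stretch of Mvk holds 5 CCAAT boxes, that of Hmgcs1 3, that of Idi1 2 and that of Sc5d 1. All 4 stretches, picked partly by the response, hold a CCAAT box, as do 37.4% of all 300-base windows. The window of Msmo1, which also rose at 24 h, holds 3. No link between the box and the response was tested.

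After 4 h of MCB-613-10-1, several sterol enzymes were lower and none was higher. Of the 18 sterol enzymes, 6 fell (Idi1, Msmo1, Hmgcs1, Sqle, Fdft1 and Cyp51), 0 rose and 12 were not called. Stard4 fell too, as did 2 of the 10 fatty acid enzymes, Elovl6 and Scd2, and none of the 5 SREBP regulators was called. The threshold for a call was 0.05 on the adjusted p of edgeR's quasi-likelihood test. Over the 34 genes 9 were lower and 0 higher, whereas of all 15336 genes tested 3.71% were lower and 3.45% higher. Of the genes called at 4 h 48.2% were higher, and 34.5% when libraries were scaled by their plain totals. The median log2 fold change was -0.36 for sterol enzymes, -0.060 for regulators, 0.02 for fatty acid enzymes and -0.01 for all genes. For 12 of the 34 genes the 3 treated libraries all lay below the 3 vehicle libraries, and for the other 22 the groups overlapped. How often groups stand apart among all genes was not counted, so these counts have no background share beside them. Fibroblast markers summed to 14445 to 16362 CPM in vehicle and 14192 to 16711 CPM in treated libraries at 4 h, and macrophage and leukocyte markers to 101 to 111 CPM and 72.3 to 94.1 CPM, with 1 of 10 lower in each list, and their part in the result was not tested. In a culture measured in bulk, fewer cells of a type and less RNA per cell cannot be told apart.

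In the mevalonate part of the pathway, Hmgcs1 makes the HMG-CoA from which mevalonate is formed (ENSMUSG00000093930, chromosome 13, 120151915 to 120169796, plus strand; all such positions are on GRCm39). Its level was 56.4, 53.5 and 48.1 CPM in the vehicle libraries and 30.8, 32.0 and 34.2 CPM in the treated ones, a log2 change of -0.70 ± 0.10 (SE, edgeR adjusted p = 0.00120). Idi1, which isomerizes the C5 building block of all isoprenoids (ENSMUSG00000058258, chromosome 13, 8935537 to 8942487, plus strand), stood at 24.2, 18.4 and 16.8 CPM in vehicle and 11.2, 9.75 and 9.17 CPM in treated libraries, a log2 change of -0.98 ± 0.15 (SE, edgeR adjusted p = 0.00285). Of the 9 genes called Idi1 fell most, 1.98-fold, and all treated libraries of both genes lay below all vehicle libraries. Vehicle replicate 1, the library that stood apart, was the highest for Idi1, and without it the log2 fold change was -0.80 (adjusted p = 0.000935). The other 5 genes of the mevalonate part (Acat2, Mvk, Pmvk, Mvd and Fdps) were not called, with log2 fold changes of -0.46 to 0.13. The sterol enzymes were split into a mevalonate part and the steps from squalene to cholesterol after the values were seen.

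Between squalene and cholesterol, 4 of 11 enzymes fell at 4 h, beside 3.71% of all genes tested. Fdft1, which joins farnesyl units into squalene (ENSMUSG00000021273, chromosome 14, 63382599 to 63417027, minus strand), had 35.7, 31.7 and 29.5 CPM in vehicle and 23.8, 25.9 and 22.0 CPM in treated libraries, a log2 change of -0.44 ± 0.11 (SE, edgeR adjusted p = 0.0349). Sqle, the squalene epoxidase and an oxygen-dependent control point of the pathway (ENSMUSG00000022351, chromosome 15, 59186926 to 59203041, plus strand), went from 46.9, 48.2 and 41.1 to 30.6, 31.2 and 29.6 CPM, a log2 change of -0.58 ± 0.10 (SE, edgeR adjusted p = 0.00410). These treated libraries were all below the vehicle libraries, by 1.35-fold for Fdft1 and 1.49-fold for Sqle in the fit. Cyp51, the lanosterol demethylase (ENSMUSG00000001467, chromosome 5, 4131145 to 4154746, minus strand), was measured at 107, 106 and 101 CPM in vehicle and 78.6, 81.4 and 79.3 CPM in treated libraries, a log2 change of -0.39 ± 0.078 (SE, edgeR adjusted p = 0.0111). Msmo1, which removes the methyl groups at C4 of sterols (ENSMUSG00000031604, chromosome 8, 65171173 to 65186826, minus strand), had 76.3, 59.5 and 54.5 CPM in vehicle and 37.9, 36.2 and 35.9 CPM in treated libraries, a log2 change of -0.79 ± 0.12 (SE, edgeR adjusted p = 0.00264). The groups did not overlap for either gene. Hsd17b7, an enzyme of the same demethylation, missed the threshold, at -0.38 (adjusted p = 0.0591), and was called in 7 of the 12 other settings tried, among them without vehicle replicate 1 (-0.25, adjusted p = 0.0478) or 2 (0.0459).

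The calls of Fdft1 and Cyp51 were the least stable among sterol enzymes. That of Fdft1 ended without vehicle replicate 2 (adjusted p = 0.0635) or without treated replicate 1, 2 or 3 (0.101, 0.0747 and 0.189). That of Cyp51 ended without treated replicate 1 or 3 (0.0520 and 0.0878). Fdft1 overlaps Ctsb and Cyp51 overlaps Akap9 in the annotation, both protein-coding, and whether reads were counted by strand is not given in the sources used here.

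Stard4 encodes a protein that carries cholesterol between membranes (ENSMUSG00000024378, chromosome 18, 33332408 to 33346915, minus strand). Its level fell from 43.8, 34.4 and 33.9 CPM to 24.8, 23.9 and 24.7 CPM, a log2 change of -0.61 ± 0.12 (SE, edgeR adjusted p = 0.00826), with the treated libraries all below the vehicle ones. The call ended without treated replicate 2 (adjusted p = 0.0537). Among fatty acid enzymes, Elovl6, which lengthens palmitate (ENSMUSG00000041220, chromosome 3, 129326004 to 129432144, plus strand), went from 48.9, 40.7 and 35.4 CPM to 29.1, 29.6 and 26.8 CPM, a log2 change of -0.55 ± 0.12 (SE, edgeR adjusted p = 0.0191). Scd2, a desaturase that makes monounsaturated fatty acids (ENSMUSG00000025203, chromosome 19, 44282113 to 44295303, plus strand), went from 183, 171 and 178 CPM to 123, 142 and 148 CPM, a log2 change of -0.37 ± 0.090 (SE, edgeR adjusted p = 0.0302). In both genes the groups stood apart, but neither call was firm. Leaving out treated replicate 1, 2 or 3 ended that of Elovl6 (adjusted p = 0.0715, 0.0751 and 0.109) and that of Scd2 (0.104, 0.0966 and 0.0796). Scd2 also lost its call without vehicle replicate 2 or 3 (0.0503 and 0.0856), and when all 12 libraries were fitted together (0.0817). The other 8 fatty acid enzymes had log2 fold changes of -0.10 to 0.16, with overlapping groups in each.

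**Figure D1:**
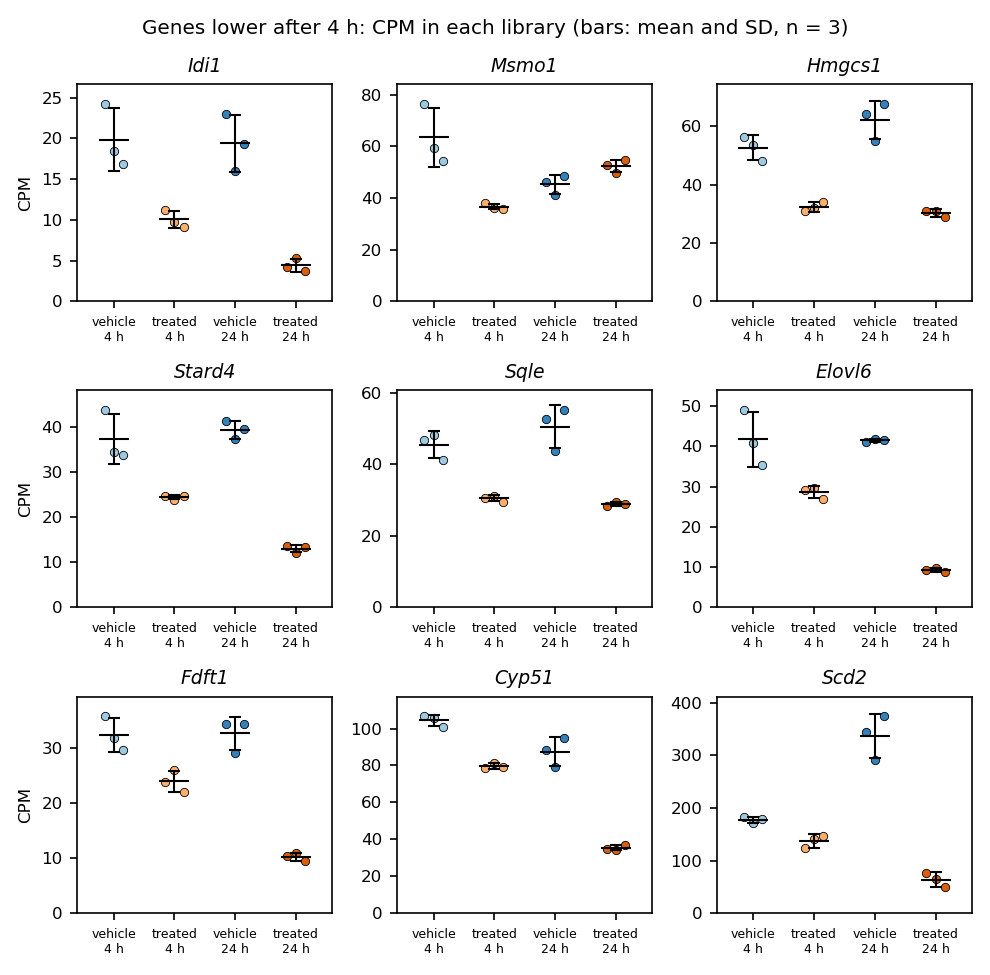
Level in CPM (y axis, starting at 0) of the 9 genes called after 4 h, in every library of the 4 groups (x axis). Points are libraries, bars the mean and SD of 3. At 4 h the treated points lie below the vehicle points in all 9 panels, and at 24 h in all but that of Msmo1, where they lie above.

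After 24 h most genes of both arms were lower, against a background in which most genes of the cell had moved. Of the 34 genes 27 fell, 3 rose and 4 were not called, whereas of all 15575 genes tested 38% were lower and 36.7% higher. Of the genes called 49.1% were higher, and 39.0% with plain library totals, which moved the median log2 fold change of all genes from -0.02 to -0.21. Of the 18 sterol enzymes, 15 fell, 2 rose (Sc5d and Msmo1) and 1, Lss, was not called. Of the 10 fatty acid enzymes, 7 fell, 1 rose (Acly) and 2, Acaca and Fasn, were not called. The median log2 fold change was -1.13 for sterol enzymes, -0.81 for fatty acid enzymes and -0.38 for regulators, beside -0.02 for all genes. Treated libraries lay below all vehicle libraries in 28 of the 34 genes and above them in 3. The share of all genes with such a separation at 24 h was not counted.

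The shift went with other changes in the same libraries. The summed level of the 10 fibroblast markers was 6690 to 7071 CPM in treated libraries against 16203 to 20020 CPM in vehicle, with 8 of 10 lower and 1, Ddr2, higher. The 10 macrophage and leukocyte markers summed to 367 to 434 CPM in vehicle and 159 to 182 CPM in treated libraries at 24 h, with 8 lower, 2 higher and none at 0. Of 8 adipocyte markers, 1 (Lep) was not in the tables and 4 could be tested, of which 1 rose, and the sum of the 7 listed ones was 14.3 to 15.4 CPM in vehicle and 19.8 to 21.0 CPM in treated libraries. Adipoq and Cidec, which define adipocytes, were at or near 0 in all groups. The summed levels of 3 other marker lists were lower as well. Those of pericytes and smooth muscle (7 genes, 3 lower) went from 44.6 to 63.9 CPM in vehicle to 15.8 to 17.9 CPM in treated libraries. Those of epicardium and mesothelium (7 genes, 2 lower and 1 higher) went from 78.5 to 92.0 CPM to 31.0 to 39.8 CPM. Those of cardiomyocytes (7 genes, of which 6 had group means under 1 CPM) went from 16.6 to 19.7 CPM to 6.18 to 9.13 CPM. Most of both sums was Tnnt2, with means of 17.5 CPM in vehicle and 6.45 CPM in treated libraries. The sums of the 8 endothelial markers, 4 lower and 4 higher, overlapped, at 44.3 to 52.8 CPM and 45.9 to 46.4 CPM, and the 4 Schwann cell markers summed to 2.38 CPM at most. The part of these changes in the levels of lipid genes was not tested.

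All 7 enzymes of the mevalonate part, a grouping made after the values were seen, fell at 24 h, with a median log2 fold change of -1.53. Of all genes tested 38% were lower. Idi1 went from 23.0, 16.0 and 19.2 CPM in vehicle to 4.17, 5.28 and 3.77 CPM in treated libraries, a log2 change of -2.12 ± 0.15 (SE, edgeR adjusted p = 4.45e-09). Mvk, which phosphorylates mevalonate (ENSMUSG00000041939, chromosome 5, 114582330 to 114598652, plus strand), went from 23.9, 21.2 and 25.7 CPM to 5.69, 5.22 and 6.13 CPM, a log2 change of -2.05 ± 0.11 (SE, edgeR adjusted p = 2.17e-12). At 4 h its libraries had overlapped, with 13.9, 17.4 and 17.7 CPM in vehicle and 12.1, 16.9 and 13.6 CPM in treated ones. The 2 genes fell 4.34-fold and 4.14-fold, the largest falls of the 18 sterol enzymes. Acat2, whose enzyme joins acetyl-CoA units at the start, fell by 1.53 on the log2 scale, and Hmgcs1, at 64.2, 55.1 and 67.6 CPM in vehicle and 30.9, 31.1 and 28.8 CPM in treated libraries, had a change of -1.03 (adjusted p = 3.97e-10). Mvd and Pmvk fell least (-0.78 and -0.42), and the call of Pmvk ended with DESeq2 (adjusted p = 0.0619), with all 12 libraries in the fit (0.0921) and when vehicle replicate 3 (0.107), treated replicate 1 (0.0547) or treated replicate 2 (0.0860) was left out. Fdps, which makes farnesyl diphosphate, had only 3 to 35 reads per library, so its value, a log2 change of -1.70 ± 0.53 (SE, edgeR adjusted p = 0.00723), is imprecise. Its call ended without treated replicate 2 (0.0548). Fdps, Idi1 and Acat2 have closely similar copies in the mouse genome, so reads of these genes may have been divided or dropped by the counting.

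Between squalene and cholesterol, 8 of 11 enzymes fell at 24 h, 2 rose and 1 was not called. Of all genes tested 38% were lower and 36.7% higher. Dhcr7, which makes cholesterol from its last precursor on one route (ENSMUSG00000058454, chromosome 7, 143376882 to 143402147, plus strand), went from 17.9, 15.1 and 20.1 CPM in vehicle to 5.12, 5.71 and 5.34 CPM in treated libraries, a log2 change of -1.70 ± 0.12 (SE, edgeR adjusted p = 2.31e-10). At 4 h it had been at 10.4, 7.94 and 8.47 CPM in vehicle and 6.21, 8.45 and 6.45 CPM in treated libraries, with no call. Fdft1 fell from 34.3, 29.1 and 34.3 CPM to 10.3, 10.9 and 9.41 CPM, a log2 fold change of -1.66 (adjusted p = 4.02e-12). Nsdhl and Hsd17b7, which act with Msmo1 in removing the C4 methyl groups, fell as well, by 1.64 and 1.12 on the log2 scale. Cyp51 went from 88.5, 79.3 and 94.7 CPM to 35.1, 34.3 and 37.1 CPM (-1.29, adjusted p = 1.83e-12) and Sqle from 52.7, 43.7 and 55.1 CPM to 28.2, 29.5 and 28.8 CPM (-0.80, adjusted p = 5e-08). The treated level of Sqle at 24 h was close to that at 4 h, while that of Cyp51 was under the lowest treated library at 4 h.

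Sc5d and Msmo1 went the other way. Sc5d, the sterol C5 desaturase that acts near the end of the pathway (ENSMUSG00000032018, chromosome 9, 42162891 to 42175552, minus strand), stood at 57.4, 55.3 and 62.1 CPM in vehicle and 117, 122 and 124 CPM in treated libraries at 24 h, a log2 change of 1.06 ± 0.054 (SE, edgeR adjusted p = 9.62e-13). This was a 2.09-fold rise with no overlap, whereas at 4 h the vehicle libraries had 75.0, 68.0 and 59.9 CPM and the treated ones 60.3, 56.9 and 50.8 CPM, with no call (-0.27, adjusted p = 0.151). Msmo1 stood at 46.1, 41.3 and 48.5 CPM in vehicle and 52.7, 49.8 and 54.7 CPM in treated libraries, a log2 change of 0.22 ± 0.068 (SE, edgeR adjusted p = 0.00754). The rise of Msmo1 was small and depended on the scaling: it was 0.02 (adjusted p = 0.767) with plain library totals and not called without vehicle replicate 2 (0.14, adjusted p = 0.0629) or with all 12 libraries in the fit (0.22, adjusted p = 0.0634). Msmo1 therefore fell at 4 h and did not fall at 24 h under any setting tried. Lss, the lanosterol synthase, was at 28.6, 28.5 and 26.9 CPM in vehicle and 28.2, 31.2 and 30.7 CPM in treated libraries, with overlapping groups (0.11, adjusted p = 0.149).

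Tm7sf2 and Ebp act between lanosterol and cholesterol. Tm7sf2, a sterol C14 reductase (ENSMUSG00000024799, chromosome 19, 6112851 to 6118403, minus strand), had only 14 to 59 reads per library, with 1.59, 1.62 and 1.75 CPM in vehicle and 0.941, 0.462 and 0.876 CPM in treated libraries at 24 h, a log2 change of -1.13 ± 0.33 (SE, edgeR adjusted p = 0.00416). At 4 h its libraries overlapped, at 1.12, 1.30 and 1.08 CPM in vehicle and 1.18, 1.78 and 1.87 CPM in treated ones. Tm7sf2 overlaps the protein-coding gene Vps51. Ebp, the sterol isomerase (ENSMUSG00000031168, chromosome X, 8051568 to 8059751, minus strand), had 19.1, 19.1 and 21.3 CPM in vehicle and 13.8, 13.4 and 13.5 CPM in treated libraries, a log2 change of -0.54 ± 0.089 (SE, edgeR adjusted p = 2.2e-05). Its vehicle libraries at 4 h, 8.48, 11.7 and 13.2 CPM, were all lower than those at 24 h, and the treated ones at 4 h, 13.2, 11.1 and 11.6 CPM, overlapped with them.

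**Figure D2:**
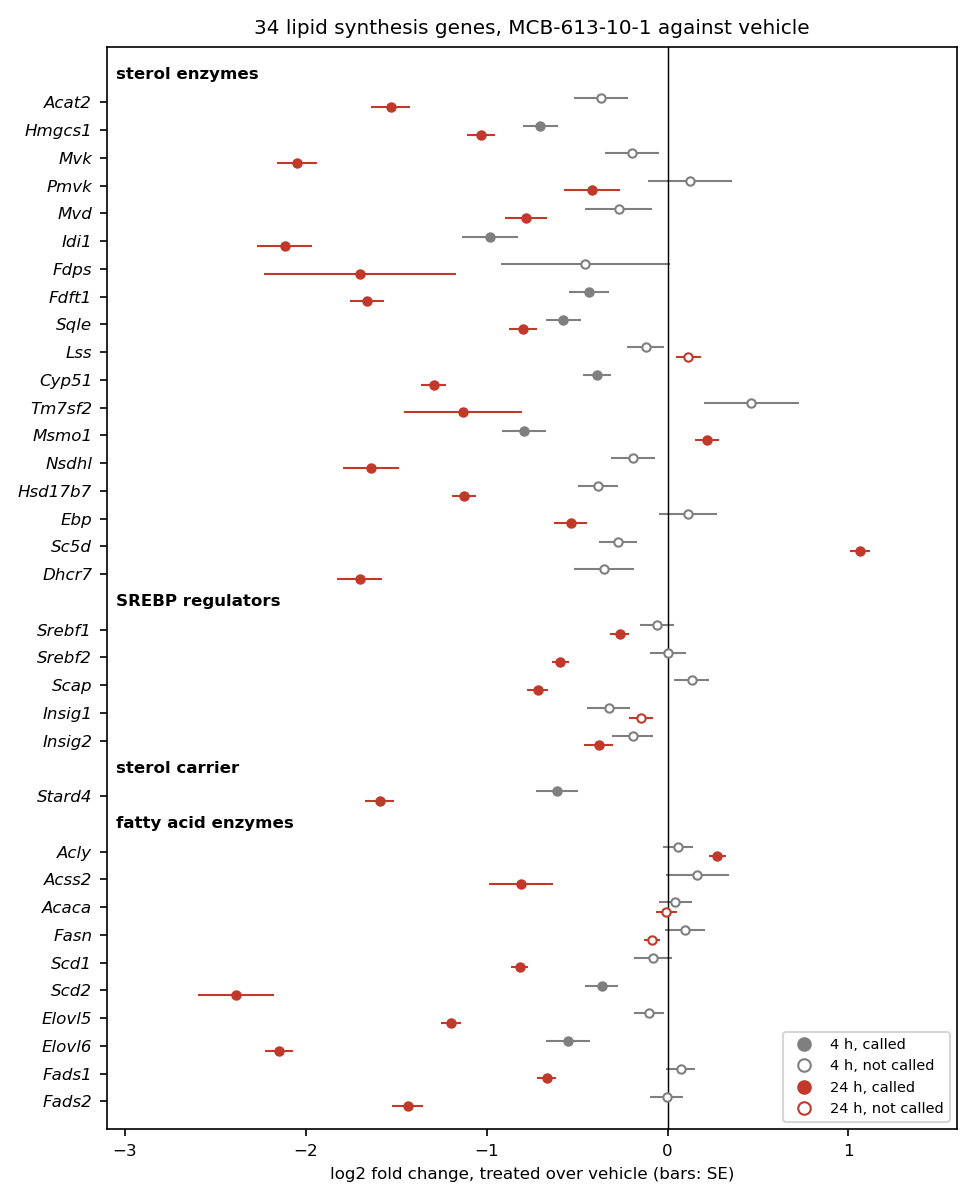
Log2 fold change of treated over vehicle (x axis) for the 34 genes (y axis), grouped by role, at 4 h (grey) and 24 h (red), with bars for the standard error. Filled points passed the adjusted p threshold of 0.05. Most red points lie left of the grey ones. Right of 0 at 24 h lie Sc5d, Msmo1 and Acly, which were called, and Lss, which was not.

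The SREBP regulators were not called at 4 h, and 4 of the 5 were lower at 24 h. In each of the 5 the groups overlapped at 4 h. Srebf2 (ENSMUSG00000022463, chromosome 15, 82031382 to 82089580, plus strand) was at 140.4, 162 and 148 CPM in vehicle and 132, 168 and 150.5 CPM in treated libraries at 4 h, a log2 change of 0.0030 ± 0.10 (SE, edgeR adjusted p = 0.991). After 24 h it was at 137, 129.8 and 141 CPM in vehicle and 87.9, 91.3 and 89.0 CPM in treated libraries, a log2 change of -0.59 ± 0.048 (SE, edgeR adjusted p = 1.33e-09). Scap, the escort of the SREBPs (ENSMUSG00000032485, chromosome 9, 110162356 to 110214018, plus strand), had 76.9, 79.6 and 87.2 CPM in vehicle and 77.4, 94.0 and 95.5 CPM in treated libraries at 4 h (0.13, adjusted p = 0.459). At 24 h its values were 87.7, 87.6 and 84.9 CPM and 54.8, 54.7 and 47.4 CPM, a log2 change of -0.72 ± 0.059 (SE, edgeR adjusted p = 1.46e-09), the largest fall among the 5. In both genes the groups overlapped at 4 h and stood apart at 24 h.

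Srebf1 (ENSMUSG00000020538, chromosome 11, 60089915 to 60113407, minus strand) changed little, from 113, 103 and 107 CPM in vehicle to 87.5, 86.7 and 92.1 CPM in treated libraries at 24 h, a log2 change of -0.26 ± 0.051 (SE, edgeR adjusted p = 0.000113). At 4 h it was at 95.05, 98.7 and 96.4 CPM and 81.7, 103 and 93.3 CPM (-0.060, adjusted p = 0.747). It overlaps Rai1, another protein-coding gene. Of the INSIG genes, Insig2 (ENSMUSG00000003721, chromosome 1, 121232082 to 121260318, minus strand) fell at 24 h, from 27.5, 24.6 and 27.3 CPM to 18.9, 21.2 and 20.5 CPM, a log2 change of -0.38 ± 0.080 (SE, edgeR adjusted p = 0.000298), after 26.3, 24.0 and 22.7 CPM in vehicle and 23.8, 19.3 and 20.8 CPM in treated libraries at 4 h. Insig1, itself a known target of the SREBPs (ENSMUSG00000045294, chromosome 5, 28276361 to 28283660, plus strand), was not called at either time. It stood at 50.005, 47.5 and 39.6 CPM in vehicle and 36.0, 40.9 and 32.6 CPM in treated libraries at 4 h (-0.32, adjusted p = 0.125), and at 46.7, 40.9 and 45.6 CPM and 39.9, 38.5 and 41.0 CPM at 24 h (-0.15, adjusted p = 0.0526). Values of Insig1 lay close to the threshold, and it was called lower in 2 of 12 other settings at 4 h and in 4 of 12 at 24 h, among them without vehicle replicate 2 (adjusted p = 0.00879) or treated replicate 3 (0.0455). Stard4, by contrast, went from 41.3, 37.3 and 39.7 CPM to 13.6, 12.1 and 13.4 CPM at 24 h, a 3.01-fold fall (log2 fold change -1.59, adjusted p = 7.62e-13).

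**Figure D3:**
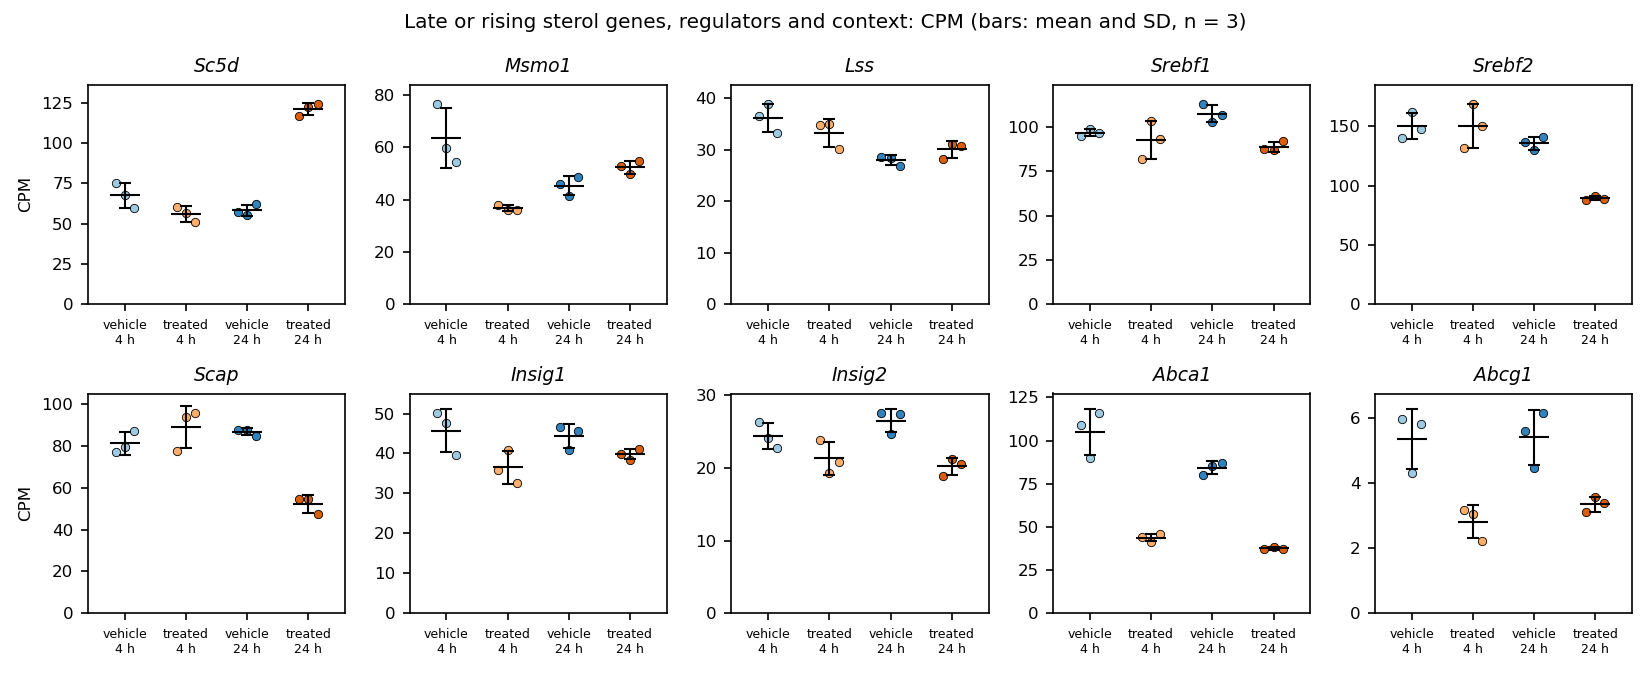
Level in CPM (y axis, starting at 0) of Sc5d, Msmo1, Lss, the 5 SREBP regulators and 2 related genes outside the 34 (Abca1, Abcg1) in every library of the 4 groups (x axis). Points are libraries, bars the mean and SD of 3. Sc5d is highest in treated libraries at 24 h, and Srebf2 and Scap lowest there.

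Within the fatty acid arm, the early steps and the later steps differed in what was called at 24 h. The split was made after the values were seen. Of the 4 enzymes that supply acetyl-CoA and build palmitate, 1 rose, 1 fell and 2 were not called (median -0.046), whereas all 6 elongases and desaturases fell (median -1.32, from -2.39 to -0.67). Acly, which makes acetyl-CoA from citrate (ENSMUSG00000020917, chromosome 11, 100367179 to 100418826, minus strand), was at 158, 150.5 and 152 CPM in vehicle and 188, 184 and 182 CPM in treated libraries, a log2 change of 0.28 ± 0.044 (SE, edgeR adjusted p = 1.5e-05). Its rise was 0.082 and not called with plain library totals (adjusted p = 0.111). At 4 h it had been at 140.5, 162 and 155 CPM in vehicle and 155, 165 and 156 CPM in treated libraries. Acss2, which makes acetyl-CoA from acetate (ENSMUSG00000027605, chromosome 2, 155359868 to 155427644, plus strand), fell from 5.05, 4.497 and 5.92 CPM to 3.07, 2.97 and 2.71 CPM, a log2 change of -0.81 ± 0.18 (SE, edgeR adjusted p = 0.000367), and stood at 3.42, 3.29 and 2.85 CPM and 3.89, 3.48 and 3.35 CPM at 4 h. It is the least abundant of the 10 per length and overlaps Gss and Ggt7, both protein-coding. Fasn, the palmitate synthase, was at 282, 294 and 289 CPM in vehicle and 268, 264 and 277 CPM in treated libraries (-0.085, adjusted p = 0.0869). Acaca, which makes malonyl-CoA, was nearer to 0, at -0.0072 on the log2 scale (adjusted p = 0.915). The treated libraries of Fasn all lay below the vehicle ones, and it was called lower with no low-count filter (-0.11, adjusted p = 0.0427). With plain library totals both were called lower (Fasn -0.28, Acaca -0.20).

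Scd2 showed the largest fall of the 34 genes, from 344, 292 and 375 CPM in vehicle to 77.1, 65.0 and 49.8 CPM in treated libraries, a log2 change of -2.39 ± 0.21 (SE, edgeR adjusted p = 0.000455), a 5.23-fold change. All treated libraries lay below every vehicle library. Elovl6 followed with 41.1, 41.9 and 41.5 CPM in vehicle and 9.33, 9.78 and 8.71 CPM in treated libraries, a log2 change of -2.15 ± 0.078 (SE, edgeR adjusted p = 5.73e-15). Fads2, the first desaturase of the polyunsaturated route (ENSMUSG00000024665, chromosome 19, 10040129 to 10079110, minus strand), went from 89.2, 78.7 and 92.1 CPM to 33.3, 34.5 and 27.4 CPM, a log2 change of -1.44 ± 0.086 (SE, edgeR adjusted p = 5.32e-09). At 4 h neither the vehicle libraries of Fads2 (51.9, 54.2 and 57.9 CPM) nor the treated ones (50.4, 57.7 and 55.3 CPM) stood apart. Fads1, which acts later on the same route (ENSMUSG00000010663, chromosome 19, 10160252 to 10174241, plus strand), had 144, 135 and 151 CPM in vehicle and 87.8, 90.6 and 90.2 CPM in treated libraries, a log2 change of -0.67 ± 0.051 (SE, edgeR adjusted p = 4.42e-10), after 119, 118 and 121 CPM and 118, 131 and 126 CPM at 4 h. Elovl5 and Scd1 lay between, with falls of 1.20 and 0.82 on the log2 scale. Elongases and desaturases outside the 34, picked after their values were seen, did not all fall. Of 9 listed 5 could be tested at 24 h, of which 3 rose, 1 fell (Elovl1, -0.26) and 1, Fads6, was not called. Fads3 was at 256, 259.7 and 246 CPM in vehicle and 396, 406 and 412 CPM in treated libraries, a log2 change of 0.68 ± 0.044 (SE, edgeR adjusted p = 3.24e-11). Elovl4 and Elovl7 were higher in treated than in vehicle libraries by 0.95 and 1.20 on the log2 scale (edgeR adjusted p = 1.04e-06 and 0.00433). From 4 h to 24 h the mean of Elovl4 went from 27.3 to 13.4 CPM in vehicle and from 25.9 to 25.6 CPM in treated libraries. That of Elovl7, with only 17 to 77 reads per library, went from 1.71 to 0.820 CPM and from 1.38 to 1.88 CPM.

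**Figure D4:**
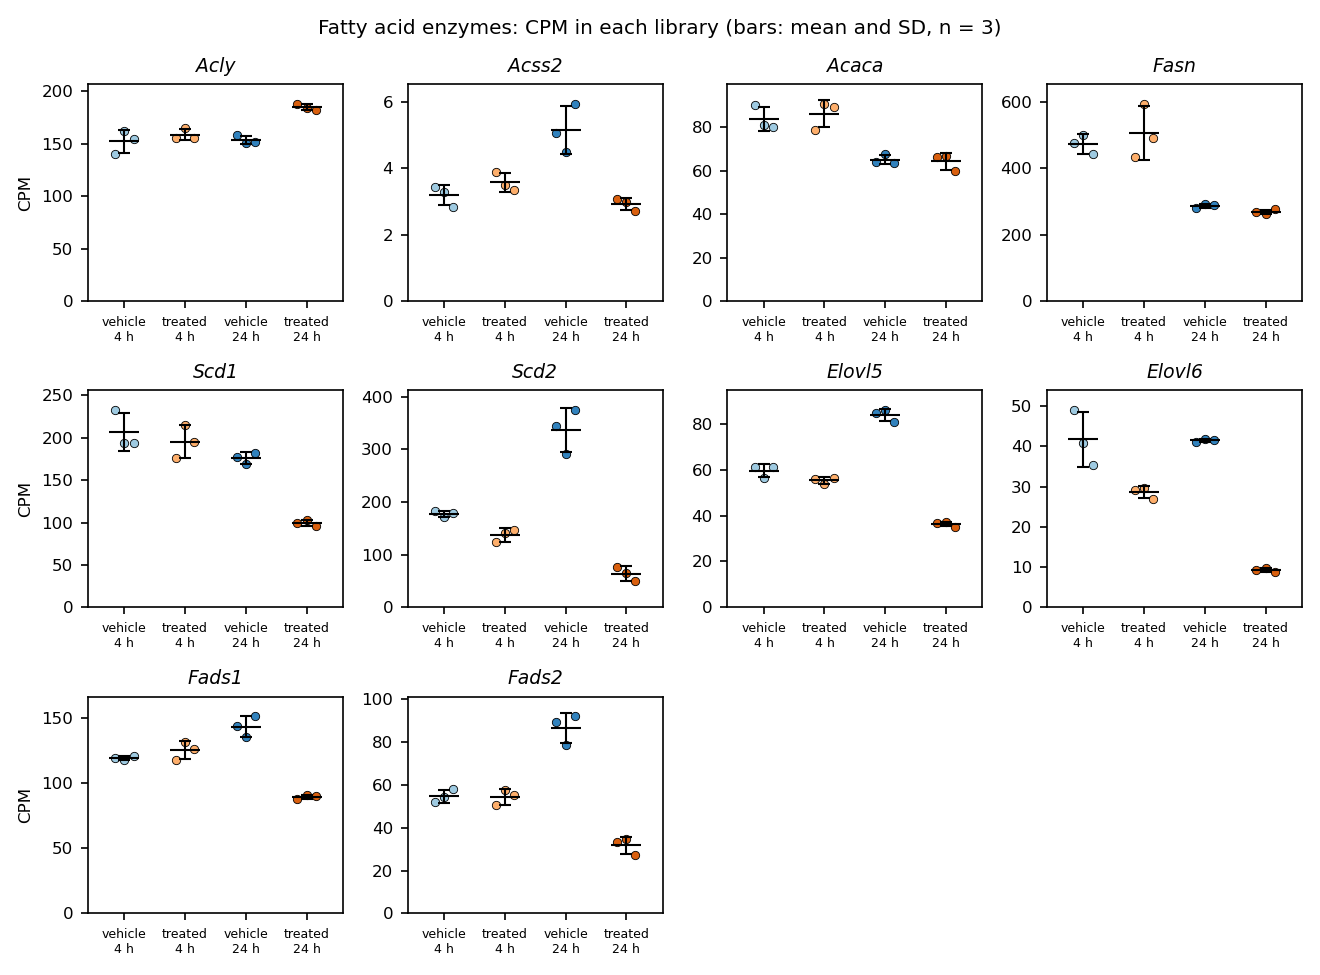
Level in CPM (y axis, starting at 0) of the 10 fatty acid enzymes in every library of the 4 groups (x axis). Points are libraries, bars the mean and SD of 3. In the 6 panels of elongases and desaturases the treated libraries at 24 h lie below all others, while Acaca and Fasn differ between times more than between treatments.

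Set side by side at 4 h, 6 of 18 sterol enzymes and 2 of 10 fatty acid enzymes were lower, beside 3.71% of all genes tested. The medians of the sterol and fatty acid enzymes were -0.36 and 0.02. With 1 library left out the medians were -0.40 to -0.29 and -0.041 to 0.062, so the sign of that of the fatty acid enzymes was not fixed. The sum over the sterol enzymes was 517 to 594 CPM in vehicle and 400.4 to 428 CPM in treated libraries at 4 h. For the fatty acid enzymes it was 1327 to 1408 CPM and 1226 to 1482 CPM, with overlap. At 24 h both sums had separated, from 510.5 to 590.5 CPM in vehicle to 379 to 393 CPM in treated libraries for sterol enzymes, and from 1319 to 1433 CPM to 828 to 869 CPM for fatty acid enzymes. Sc5d alone made up 117, 122 and 124 CPM of the sterol sum in the treated libraries at 24 h. Of the fatty acid sum at 24 h, Scd2 made up 344, 292 and 375 CPM in vehicle libraries. In treated libraries it made up 77.1, 65.0 and 49.8 CPM. In the authors' deposited tables, 7 sterol enzymes and 2 fatty acid enzymes were lower at 4 h, and 14 and 7 were lower and 2 and 1 higher at 24 h. The share of all genes called by the authors' values was not counted. Per length, the sterol enzyme with the highest mean level was Cyp51 in 3 groups (23.7, 18.1 and 19.8 RPKM, which is CPM per kilobase of the deposited gene length) and Sc5d in treated libraries at 24 h (24.9 RPKM). Among fatty acid enzymes the highest was Fasn at 4 h (43.3 RPKM in vehicle, 46.3 RPKM in treated libraries), Scd2 in vehicle at 24 h (61.7 RPKM) and Acly in treated libraries at 24 h (34.9 RPKM). The median level in vehicle at 24 h was 7.65 RPKM for sterol enzymes and 26.3 RPKM for fatty acid enzymes. No test of 1 arm against the other was made, since genes are not replicates.

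The difference between the 24 h and the 4 h response was tested for each gene as an interaction over all 12 libraries. Of the 34 genes 21 had a lower response at 24 h, 3 a higher one and 10 were not called, while of all 16341 genes tested 27.1% were lower and 26.7% higher (49.6% of those called were higher, and 40.0% with plain library totals). The counts were 11 lower and 2 higher of 18 sterol enzymes (median -0.82), 7 lower and 1 higher of 10 fatty acid enzymes (median -0.85) and 2 lower of 5 regulators. Scd2 differed most, by -2.01 (SE 0.19, edgeR adjusted p = 7.47e-07), followed by Mvk with -1.84 (adjusted p = 2.05e-07). Of the 24 genes called, 8 had responses of opposite sign at the 2 times. How often signs were opposite among all genes called was not counted. Sc5d, uncalled at 4 h, and Msmo1 went from negative to positive, by 1.34 (edgeR adjusted p = 4.46e-08) and 1.02 (edgeR adjusted p = 1.3e-05). The positive value of Msmo1 at 24 h was not called with plain library totals. Tm7sf2, Acss2, Ebp, Fads1, Scap and Srebf2 went from positive, uncalled values at 4 h to a fall at 24 h. The 4 h value of Srebf2 was close to 0 and turned negative in 5 of 12 other settings, and that of Ebp in 1. Sqle and Lss were not called (-0.22 and 0.24), and the fall of Sqle was thus not shown to differ between the times, although it was called without vehicle replicate 2 at 24 h (adjusted p = 0.0385) and with plain library totals (0.0285).

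The vehicle libraries differed between the times as well. From 4 h to 24 h in vehicle, 11 of the 34 genes were higher, 7 lower and 16 not called, close to the shares of all genes (27.4% higher and 27% lower). Scd2 rose most among fatty acid enzymes (0.92, adjusted p = 4.49e-05) and Acat2 and Dhcr7 among sterol enzymes (0.98 and 0.98). Fasn fell most (-0.72, adjusted p = 1.78e-06). Idi1, Fdft1, Elovl6, Stard4 and all 5 regulators were not called, although Stard4 (0.21, adjusted p = 0.0358) and Srebf2 (-0.19, adjusted p = 0.0432) were without vehicle replicate 1 at 4 h. Macrophage and leukocyte markers were higher in vehicle at 24 h than at 4 h in 10 of 10 cases, with sums of 367 to 434 CPM and 101 to 111 CPM, and their part in these differences was not tested. For Scd2 the treated libraries at 24 h were also below all libraries at 4 h, whereas for Ebp they were above all of those.

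Other genes of these pathways, in 4 lists, included both rises and falls at 24 h. Of all genes tested, 3.45% were higher and 3.71% lower at 4 h, and 36.7% and 38% at 24 h. Of 9 genes of sterol supply outside the 34, edgeR called 0 at 4 h (2 had an unadjusted p under 0.05), and 6 rose and 2 fell at 24 h. Vldlr, a receptor that takes up triglyceride-rich lipoproteins, went from 20.5, 18.1 and 24.7 CPM in vehicle to 60.8, 75.3 and 65.0 CPM in treated libraries at 24 h, a log2 change of 1.68 ± 0.12 (SE, edgeR adjusted p = 2.72e-06). Its libraries at 4 h overlapped, with 59.6, 48.2 and 50.1 CPM in vehicle and 62.3, 60.8 and 59.1 CPM in treated ones. Tmem97, which encodes the sigma-2 receptor and binds NPC1, fell at 24 h from 59.7, 61.3 and 58.2 CPM to 27.8, 29.7 and 26.3 CPM, a log2 change of -1.08 ± 0.064 (SE, edgeR adjusted p = 8.98e-12).

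Abca1 and Abcg1 export cholesterol from the cell and are known targets of the liver X receptors, which sense oxysterols. Abca1 fell from 109, 89.9 and 116 CPM to 44.2, 41.5 and 45.8 CPM at 4 h, a log2 change of -1.26 ± 0.11 (SE, edgeR adjusted p = 3.08e-05), which exceeds the fall of any of the 34 genes at that time. At 24 h it was at 80.2, 85.3 and 87.3 CPM in vehicle and 37.3, 38.5 and 37.0 CPM in treated libraries (-1.15, adjusted p = 5.44e-13). Abcg1 went from 5.96, 4.30 and 5.80 CPM to 3.18, 3.04 and 2.22 CPM at 4 h, a log2 change of -0.93 ± 0.20 (SE, edgeR adjusted p = 0.0163), and at 24 h from 5.59, 4.46 and 6.13 CPM to 3.11, 3.57 and 3.37 CPM (-0.68, adjusted p = 0.00160). Abca1, Abcg1 and 6 of the 18 sterol enzymes were therefore lower in the same treated libraries at 4 h, while the other 12 sterol enzymes were not called. Of 15 genes of sterol export and storage 0 rose, 2 fell and 13 were not called at 4 h. At 24 h 6 rose and 8 fell, led by Nceh1, a cholesteryl ester hydrolase (-1.39), and Npc1, which moves cholesterol out of lysosomes (1.28).

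Among 9 genes of SREBP processing and of sterol-controlled degradation 0 were called at 4 h, and 4 rose and 4 fell at 24 h. Of all genes tested at 24 h, 36.7% were higher and 38% lower. Mbtps1, the first protease that cleaves SREBPs in the Golgi, fell by 0.87 on the log2 scale (adjusted p = 1.01e-10). Pgrmc1, a heme-binding membrane protein, rose by 1.30 (adjusted p = 2.46e-14). Of 26 further genes of fatty acid synthesis and activation, 21 could be tested at 4 h with 0 called. At 24 h 20 could be tested, of which 10 rose and 6 fell. Lpin1, a phosphatidate phosphatase, and Me1, the malic enzyme that supplies NADPH, rose most (1.36 and 1.22).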

How the data were processed

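RNA of 12 libraries of mouse cardiac fibroblasts was sequenced. Per the submitters' processing notes, the authors worked on the build GRCm39 (mm39) with featureCounts 1.5.0-p3, HISAT2 2.0.5 and DESeq2, whose roles are not stated. Per the file headers, the authors deposited raw read counts per gene and library in 1 table per time, together with gene length in bases, a log2 fold change and an adjusted p-value of their own. From the deposited counts, genes were tested with edgeR 4.0.16 (limma 3.58.1, R 4.3.3): the default low-count filter, TMM scaling and a robust quasi-likelihood test, two-sided, with Benjamini-Hochberg adjustment over all genes tested. Each time was fitted on its own 6 libraries. The difference between the responses and the comparison of vehicle libraries across times used all 12, with a gene absent from 1 table entered as 0 counts there. Levels are CPM after TMM scaling over all 12 libraries, and RPKM divides these by the deposited gene length.

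The 34 genes and the lists of 59 related genes and of cell type markers were chosen with earlier results of these data known. All 34 are accounted for, and values in every library are given for those called at 4 h, for up to 3 called rises and 3 falls of each arm at 24 h, for the SREBP regulators and Stard4, and for those whose response changed sign with a called difference. Of each related list the 2 called genes with the largest change at each time are named, and Abca1 and Abcg1 whatever their result. A few related genes are not reported here. The other settings were DESeq2 1.42.0, its size factors, plain library totals, no filter, all 12 libraries in 1 fit, a replicate block and each library left out. The edgeR steps were tested on simulated data. A deposited table of FPKM values was not used. Promoter sequences are from RefSeq (GRCm38.p6), an older build than that of the counts, and were matched by symbol.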

Additional observations from a re-analysis of the deposited data

Results flagged for a closer look

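Genes whose response at 24 h differed from that at 4 h by the edgeR interaction test are listed here, with the difference in log2 fold change, 24 h minus 4 h. In the mevalonate part of the sterol pathway these were Mvk (-1.84), Acat2 (-1.15), Idi1 (-1.13) and Hmgcs1 (-0.32). Changes in vehicle enter such differences as well. The mean of Acat2 in vehicle was 10.2 CPM at 4 h and 20.2 CPM at 24 h, and in treated libraries 7.90 and 6.96 CPM. For Idi1 the means were 19.8 and 19.4 CPM in vehicle and 10.0 and 4.41 CPM in treated libraries. Between squalene and cholesterol, the responses of Tm7sf2 (-1.59), Nsdhl (-1.44), Dhcr7 (-1.34), Fdft1 (-1.22), Cyp51 (-0.90), Hsd17b7 (-0.73) and Ebp (-0.64) were lower at 24 h. Those of Sc5d (1.34) and Msmo1 (1.02) were higher. Among regulators and carriers, Stard4 (-0.97), Scap (-0.85) and Srebf2 (-0.59) had lower responses at 24 h. In the fatty acid arm, Scd2 (-2.01), Elovl6 (-1.59), Fads2 (-1.43), Elovl5 (-1.09), Acss2 (-0.97), Fads1 (-0.73) and Scd1 (-0.73) were lower and Acly (0.22) higher.

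The calls of Acly and Hmgcs1 were the least stable of these. That of Acly was lost in 10 of the 12 fits that left out 1 library (adjusted p of 0.0650 to 0.131), all but those without vehicle replicate 1 or treated replicate 2 at 4 h. That of Hmgcs1 was lost in 8 of 12 (0.0516 to 0.111), all but those without vehicle replicate 1 or 2 or treated replicate 1 at 4 h or vehicle replicate 2 at 24 h, and with DESeq2 (0.0602). Acly was also not called with plain library totals (0.080, adjusted p = 0.479) or with no filter (0.21, adjusted p = 0.149).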

How the results depend on the processing

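Over the 34 genes, the 4 comparisons and all other settings, 1877 of 1971 values kept their side of the threshold, 60 lost a call and 34 gained one. No value that was called changed sign. Some uncalled values did, among them those of Srebf2 and Ebp at 4 h, and they are included in the 1877. The changed calls were those of 21 genes. The number of all genes called at 4 h was 1098, and 1953 with the replicate block, 2198 with all 12 libraries in 1 fit and 443 to 1760 with 1 library left out, the highest without vehicle replicate 1. Fatty acid enzymes lower at 4 h were 2, and 1 with all 12 libraries in the fit and 0 to 2 with 1 library left out. Sterol enzymes lower at 4 h were 6, and 4 to 7 with 1 library left out. With plain library totals, the 24 h medians were -1.32 for sterol enzymes and -1.01 for fatty acid enzymes (-1.19 to -1.10 and -0.88 to -0.75 with 1 library left out), and the medians of the difference between responses were -0.96 and -0.99 (-0.90 to -0.78 and -0.93 to -0.79). Sterol enzymes higher at 24 h were then 1, as with all 12 libraries in the fit (1 to 2 with 1 library left out), and fatty acid enzymes higher 0. Fatty acid enzymes with a higher response at 24 h than at 4 h were 0 with library totals and with no filter, and 0 to 1 with 1 library left out. In vehicle across time, leaving out 1 library moved the medians to 0.027 to 0.24 for sterol enzymes and 0.12 to 0.20 for fatty acid enzymes. The cause of these shifts was not tested.

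Replicate numbers were not taken as pairing: deviations of libraries with the same number correlated with r of 0.0876, 0.0829 and 0.109 at 4 h and 0.0135, 0.0205 and -0.0430 at 24 h, although at 4 h each library correlated best with its own number. The replicate block added calls for Hsd17b7, Insig1 and Sc5d at 4 h (adjusted p = 0.0362, 0.0376 and 0.0407) and for Mvd in the difference between responses (0.0255). Depth limited Fdps, with 3 to 35 reads per library, and Tm7sf2, with 14 to 59.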
